A study of Mus musculus with 18 samples.

Results

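Mouse embryonic stem cells (ESCs) kept in hypoxia (2% oxygen) for 2 days were compared with ESCs kept in normoxia (20% oxygen). The genes compared were those with a level above 0.4 TPM (transcripts scaled to the same total in every library) in at least 2 of the 6 ESC libraries, which kept 12271 of the 13578 genes in the ESC table. All cells were of the wild-type E14 line, a pluripotent cell line, grown without feeder cells on gelatin in medium with serum and LIF. The labelled differences between groups were oxygen and its duration. The normoxic libraries are headed D0, and none is labelled as matched in time to day 2. Time in culture thus cannot be told apart from oxygen. Normoxia and hypoxia day 2 had 2 replicate libraries of total RNA each. The 2 libraries of ESCs kept in hypoxia for 7 days entered the filter and the estimate of spread, and their values are listed at the end. Just inside the expression threshold was Arnt2, at 0.528 and 0.418 TPM in normoxia and 0.421 and 0.539 TPM on day 2, and just outside it was Wnt11, at 0.631, 0.357, 0.224 and 0.173 TPM. The study's methods call the replicates biological without saying whether cultures were kept apart throughout, so p-values measure the spread between these libraries, and results from 1 line may not hold in another.

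Cells sense oxygen largely through the hypoxia-inducible factors (HIFs). With ample oxygen, prolyl hydroxylases of the EGLN family mark the HIF alpha subunits for recognition by VHL and for degradation. In low oxygen the alpha subunits persist, pair with ARNT and bind short DNA elements near genes for glucose uptake, glycolysis, lactate export, mitochondrial adjustment and blood vessel growth. ESCs already rely strongly on glycolysis in normoxia, and oxygen tension is one of the variables proposed to affect how they leave pluripotency.

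The libraries held 37760283 to 61958573 whole reads, as recovered from the deposited values. All 9 ESC markers were detected in each library, with a summed level of 17909 and 19899 TPM in normoxia and of 18261 and 17211 TPM on day 2. The day 2 replicates stood apart from each other. The Euclidean distance over all genes on the log2 scale was 30.2 between the normoxic libraries, 32.2 and 31.9 between them and day 2 replicate 1, and 45.5 and 47.7 between them and day 2 replicate 2, while the day 2 replicates were 46.1 apart. Against the normoxic mean, day 2 replicate 1 had 182 genes (1.48%) past 1.5-fold higher and 260 (2.12%) lower, and day 2 replicate 2 had 968 (7.89%) and 378 (3.08%). Replicate 1 was thus about as far from the normoxic libraries as they were from each other, and most of the day 2 difference lay in replicate 2. Most single genes below are therefore given per library, while some folds, medians and counts join the replicates. A fit without 1 day 2 library leaves a lone library in that group, with the assumption that it varies like the other groups. Counts from such a fit show only how far the calls depend on 1 library. Markers of other cell types did not share 1 direction. In the order normoxia replicates 1 and 2, then day 2 replicates 1 and 2, which is used for all library values below, the summed trophoblast list (11 of 15 genes tested) was 676, 614, 557 and 1123 TPM, of which Peg10 made up 636, 580.4, 505 and 1058 TPM. The primitive endoderm list was 70.8, 62.6, 55.6 and 62.5 TPM, the fibroblast list 39.5, 33.6, 33.9 and 43.2 TPM, and the neural list 297, 281, 277 and 238 TPM. No marker of these lists that the table holds was at 0 in all 4 libraries, though the fibroblast collagen Col3a1 did not exceed 0.0747 TPM and the trophoblast gene Plac1 did not exceed 0.00745 TPM. Their part in the results was not tested, and fewer cells of a type cannot be told apart from less RNA per cell in bulk RNA.

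No gene passed the thresholds for differential expression in limma (adjusted p at or under 0.1 and fold change over 1.5), that is 0 of 12271 genes or 0%. The smallest adjusted p was 0.215. At an unadjusted p under 0.05 there were 620 genes (5.05%), of which 369 (3.01%) were higher on day 2 and 251 (2.05%) lower. Limma with voom weights on the recovered reads also called 0 genes, with a smallest adjusted p of 0.103 and 719 genes at an unadjusted p under 0.05. By size alone, 296 genes (2.41%) were past 1.5-fold higher on day 2 and 145 (1.18%) past 1.5-fold lower. Both day 2 libraries lay above both normoxic libraries for 2008 genes (16.4%) and below them for 1773 (14.4%). Both conditions held together for 263 genes higher and 123 lower, and replicate 2 showed the larger difference in 224 of the former and 95 of the latter. A further 33 genes were past 1.5-fold in opposite directions in the day 2 replicates. With day 2 replicate 1 left out, 345 genes (2.81%) passed the thresholds higher and 148 (1.21%) lower. With day 2 replicate 2 left out, 1 gene passed in each direction (0.00815% each). They were S100a14, higher, a calcium-binding protein of epithelia, and Fat1, lower, a large cadherin, which was named after its values were seen. Fold changes throughout are on the log2(TPM + 0.5) scale, which understates the change of genes with low levels. TPM here were scaled by the genomic span of the gene, so levels are compared between libraries for 1 gene and not between genes. In the marker sums above, genes with a short span thus weigh more, and the part of Peg10 holds on this scale only. The filter at 0.4 TPM is likewise stricter for genes with a long span.

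**Figure D1:**
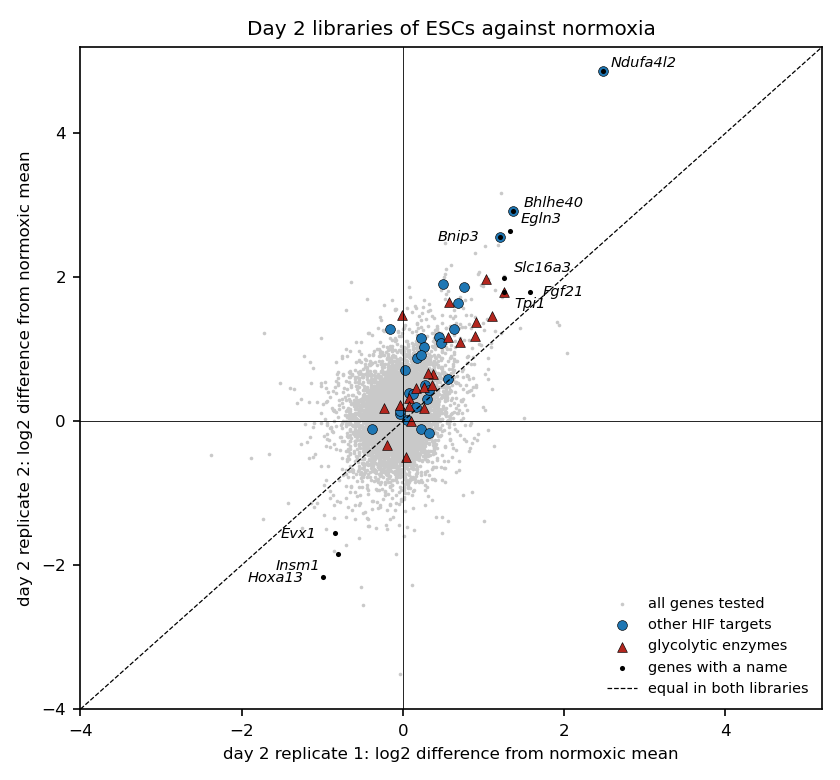
Each point is 1 of 12271 genes, with its log2(TPM + 0.5) difference from the mean of the 2 normoxic libraries in day 2 replicate 1 (x axis) and day 2 replicate 2 (y axis). Blue circles are the 28 other HIF targets, red triangles the 22 glycolytic enzymes, black dots the genes with a name, and the dashed line marks equal differences. Most members of both lists lie above the dashed line, so that their difference was larger in replicate 2, as for Ndufa4l2, 5.59-fold in replicate 1 and 29.0-fold in replicate 2.

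The promoters of a few genes that the results turn on are shown first, since the HIF element is part of how this response is read. Its core was searched as ACGTG or GCGTG on either strand in RefSeq windows of 300 bases, from 250 before to 50 after the start of transcription (assembly GRCm38.p6). CACGTG, which other factors of the same structural family also bind, holds the core on both strands and was counted on each. The 150 bases before 1 RefSeq start of each of 5 genes follow, 5′ to 3′ along the gene, with the core in capitals. They cover the lactate exporter Slc16a3 (chr11:120948917-120949066, plus strand), the lactate dehydrogenase subunit Ldha (chr7:46845654-46845803, plus strand), the mitophagy receptor Bnip3 (chr7:138909507-138909656, minus strand), the ATP-forming kinase Pgk1 (chrX:106186950-106187099, plus strand) and the triose isomerase Tpi1 (chr6:124814159-124814308, minus strand).
Slc16a3: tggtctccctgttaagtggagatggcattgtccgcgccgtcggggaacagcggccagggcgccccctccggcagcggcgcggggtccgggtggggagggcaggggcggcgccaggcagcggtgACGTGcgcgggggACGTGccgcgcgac
Ldha: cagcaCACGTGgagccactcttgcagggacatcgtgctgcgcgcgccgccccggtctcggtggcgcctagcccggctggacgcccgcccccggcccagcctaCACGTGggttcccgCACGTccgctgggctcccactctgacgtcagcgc
Bnip3: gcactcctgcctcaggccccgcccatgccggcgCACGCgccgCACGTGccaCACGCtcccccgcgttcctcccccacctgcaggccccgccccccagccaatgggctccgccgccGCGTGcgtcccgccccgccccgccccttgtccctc
Pgk1: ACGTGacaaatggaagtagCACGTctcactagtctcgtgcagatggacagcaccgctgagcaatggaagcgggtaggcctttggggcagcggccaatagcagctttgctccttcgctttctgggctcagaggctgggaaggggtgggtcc
Tpi1: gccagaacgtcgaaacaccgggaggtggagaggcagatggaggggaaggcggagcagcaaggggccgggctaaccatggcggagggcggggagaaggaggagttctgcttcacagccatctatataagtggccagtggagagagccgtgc
The stretches held 2 cores in Slc16a3, 5 in Ldha, 5 in Bnip3, 2 in Pgk1 and 0 in Tpi1. Not all of these starts are the outermost ones of their genes, since the stretches of Slc16a3 and Ldha lie within the gene spans of the GENCODE annotation, as does most of that of Tpi1 and a small part of that of Bnip3, so the count for Tpi1 holds for this window only. Over whole windows, the core was found in 15 of 22 glycolytic promoters (68.2%) and in 18 of the 22 promoters that could be matched among the 28 other HIF targets (81.8%). The share was 63.6% among the 9809 tested genes with a window and 43.8% among all 27025 promoters. The 263 higher genes had it in 108 of 200 matched promoters (54.0%) and the 123 lower genes in 43 of 86 (50.0%). ACGTG alone was found in 9 glycolytic promoters (40.9%) and in 11 of the other HIF targets (50.0%), against 26.0% of tested genes, 57 promoters of the higher genes (28.5%) and 18 of the lower genes (20.9%). The order of these shares thus depended on the form of the core, and the differences were not tested.

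The first question was which parts of the oxygen-sensing machinery differed at the RNA level. Of 11 tested genes, 2 were past 1.5-fold higher, beside 2.41% of all genes. Both were prolyl hydroxylases that shut HIF down and are themselves HIF targets. Egln3 was at 4.18 and 5.18 TPM in normoxia and at 12.5 and 31.6 TPM on day 2, and Egln1 was at 4.08, 4.79, 7.07 and 12.8 TPM. Their groups did not overlap, and replicate 2 was the highest library for both. The log2 difference was 1.99 ± 0.42 (SE) for Egln3 (adjusted p = 0.522, limma) and 1.03 ± 0.31 for Egln1 (adjusted p = 0.765, limma). The third family member, Egln2, was at 86.1, 77.6, 86.9 and 64.1 TPM, with overlapping groups. Among the subunits, Hif1a was lower in both day 2 libraries, at 41.1 and 39.5 TPM in normoxia and at 32.4 and 32.6 TPM on day 2, a log2 difference of -0.31 ± 0.14 (adjusted p = 0.970, limma). Epas1, which encodes the HIF2 alpha subunit, was at 17.0, 16.4, 14.9 and 9.08 TPM. Cited2, a HIF-induced competitor of HIF for its coactivator, was at 371, 441, 335 and 305 TPM, a log2 difference of -0.34 ± 0.15. The partner Arnt, the inhibitor Hif1an and the inhibitory relative Hif3a had overlapping groups, with log2 differences of 0.11, -0.07 and -0.03. The median over the 11 genes was -0.03, beside 0.01 over all genes.

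Glucose enters through SLC2A transporters and lactate leaves through SLC16A transporters held at the membrane by basigin. The lactate exporter Slc16a3 was at 49.3 and 48.3 TPM in normoxia and at 117 and 195 TPM on day 2, 3.07-fold higher (log2 difference 1.62 ± 0.24, adjusted p = 0.215). The glucose transporter Slc2a1 was at 117 and 104 TPM against 174 and 283 TPM, 2.01-fold higher (adjusted p = 0.534). Both day 2 libraries were above both normoxic ones for these 2 genes. Slc2a3, the second glucose transporter, was at 84.0, 67.0, 86.0 and 146 TPM. Its groups did not overlap either, but day 2 replicate 1 was only just above normoxia replicate 1. Bsg, the basigin gene, was at 489, 417, 471 and 594 TPM, and its groups overlapped. Slc16a1, the other lactate transporter, was below the normoxic libraries on day 2, at 104, 90.3, 80.9 and 88.6 TPM (log2 difference -0.19 ± 0.16). The transport genes thus split, with the exporter highest in fold and its relative on the other side of 0.

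The glycolytic enzymes were mostly higher on day 2. Of 22 tested enzymes, 19 were higher on day 2, beside 51.9% of all genes. Past 1.5-fold were 9 higher and none lower, beside 2.41% and 1.18% of all genes. The median log2 difference was 0.46, 0.29 in replicate 1 and 0.58 in replicate 2, beside -0.02 and 0.06 over all genes, and 18 of the 22 were higher in replicate 2 than in replicate 1, as were 60.3% of all genes. None passed the thresholds with all libraries. At the first step, hexokinases Hk1 and Hk2, which trap glucose in the cell, differed little, at 6.87, 4.15, 6.03 and 7.55 TPM for Hk1 and at 122, 113, 123 and 146 TPM for Hk2. Gpi1, which turns glucose phosphate into fructose phosphate, was at 143 and 129 TPM in normoxia and at 200.2 and 306 TPM on day 2, 1.82-fold higher. Phosphofructokinase, the committed step, has 3 subunit genes, and they differed in direction. The liver form Pfkl was at 115, 131, 264 and 339 TPM, a log2 difference of 1.28 ± 0.19 (adjusted p = 0.215, limma). The platelet form Pfkp was at 45.5, 44.6, 66.9 and 143 TPM, or 1.11 ± 0.31, while the muscle form Pfkm was at 15.1, 13.4, 12.3 and 11.2 TPM, or -0.26 ± 0.16. Both day 2 libraries were above normoxia for Pfkl and Pfkp and below it for Pfkm. Of the bifunctional PFKFB enzymes, which set the activator of this step, Pfkfb3 was at 3.55, 3.11, 4.42 and 4.90 TPM, and Pfkfb1, Pfkfb2 and Pfkfb4 had overlapping groups with log2 differences of 0.09, -0.02 and 0.06.

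Aldolase splits the sugar, and both its tested forms were higher. Aldoa was at 2621, 2564, 4229 and 5539 TPM, 1.87-fold higher, and Aldoc at 20.7, 23.1, 45.1 and 86.9 TPM, 2.82-fold higher. Tpi1, which interconverts the resulting trioses (chromosome 6, 124810586 to 124814296, minus strand, GRCm38), had the largest log2 difference of the list. It was at 775 and 764 TPM in normoxia and at 1848 and 2687 TPM on day 2, 2.89-fold higher (1.53 ± 0.22, 95% confidence interval 1.03 to 2.03, adjusted p = 0.215, limma). The mean was 769.8 ± 7.71 TPM (SD, n = 2) in normoxia and 2267 ± 593 TPM (SD, n = 2) on day 2, so that the gap between the groups was wider than the spread within either. In the second part of the pathway several differences were smaller. Gapdh, at 7080, 6194, 7953 and 9266 TPM, was 1.30-fold higher. Pgk1, the first ATP-forming kinase, was at 164, 201, 341 and 474 TPM, or 2.21-fold higher, with both day 2 libraries above normoxia. Pgam1 was at 386, 482, 518 and 488 TPM, 1.16-fold higher, and the day 2 libraries exceeded the higher normoxic one by little. The muscle mutase Pgam2 is not on this list but was named by the rule for the smallest p, at 6.81, 6.11, 13.1 and 14 TPM, 2.02-fold higher (adjusted p = 0.297). Among the enolases, Eno1 was at 1167, 1445, 1676 and 2041 TPM and 1.42-fold higher, while the groups overlapped for Eno2 (1.78, 1.14, 1.42 and 4.88 TPM) and Eno3 (54.6, 48.6, 53 and 36.3 TPM). Eno2 was high in replicate 2 alone. Pkm, the second ATP-forming step, was at 1637, 1577, 1989 and 2555 TPM, 1.40-fold higher. At the end, Ldha, which turns pyruvate into lactate, was at 1011, 1080, 1948 and 2362 TPM, 2.05-fold higher (adjusted p = 0.297, limma). Ldhb, the subunit favouring the reverse reaction, was at 78.6, 70.7, 78.8 and 86.2 TPM, 1.11-fold higher.

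**Figure D2:**
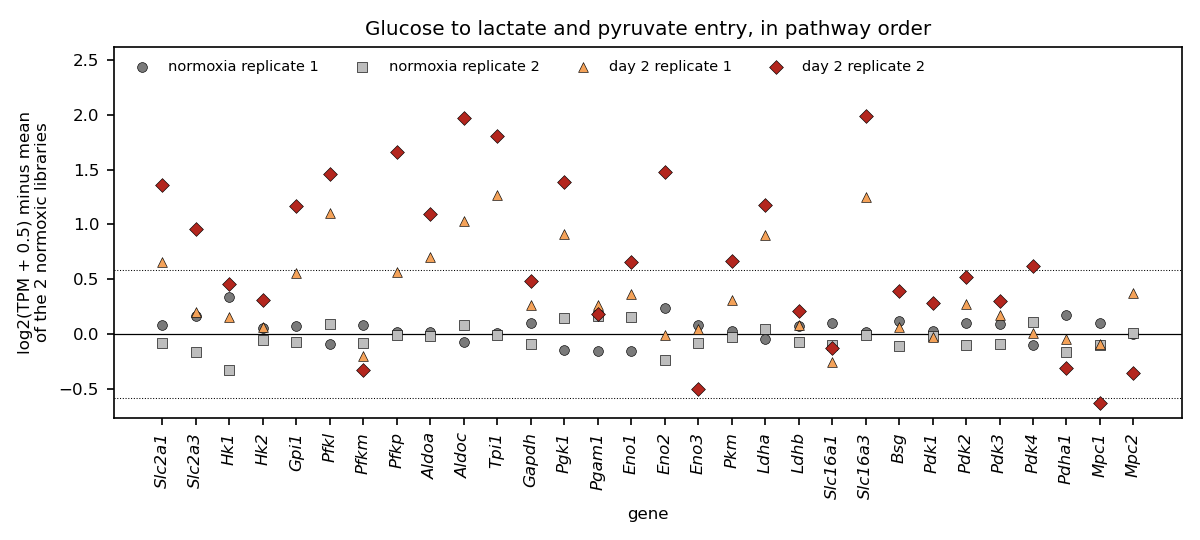
The y axis gives log2(TPM + 0.5) minus the mean of the 2 normoxic libraries for 30 genes in pathway order (x axis), with 1 symbol per library. Dotted lines mark 1.5-fold. Both day 2 libraries lie at or above the upper dotted line for Slc2a1, Pfkl, Aldoa, Aldoc, Tpi1, Pgk1, Ldha and Slc16a3. Of the genes for pyruvate entry on the right, Pdk4 (0.62) and Mpc1 (-0.63) lie outside the dotted lines in day 2 replicate 2. The rest of these genes lie between the lines in both day 2 libraries.

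Pyruvate can also enter mitochondria through the MPC carrier and pyruvate dehydrogenase, which PDK kinases switch off. None of 13 tested genes of this step was past 1.5-fold, beside 2.41% of all genes higher and 1.18% lower. None had an unadjusted p under 0.05 in limma, beside 5.05% of all genes. At these shares such counts say little, and the median log2 difference was 0.12. Pdk1, the kinase usually named as a HIF target, was at 69.4, 67.2, 67.0 and 83.1 TPM, a log2 difference of 0.13 ± 0.18 with overlapping groups (95% confidence interval -0.27 to 0.53). Pdk2 was at 3.84, 3.27, 4.38 and 5.29 TPM, the largest log2 difference of this list at 0.39 ± 0.20. Pdk4 was at 3.08, 3.64, 3.37 and 5.40 TPM, and its groups overlapped. The carrier subunit Mpc1 was at 4.70, 4.03, 4.04 and 2.63 TPM. Storage of glucose as glycogen gave 2 of 12 genes past 1.5-fold higher, beside 2.41% of all genes. Pgm1, which links glucose phosphates to glycogen, was at 2.63, 1.97, 5.13 and 14.5 TPM, 3.31-fold higher (adjusted p = 0.602, limma). Ppp1r3c, a subunit that targets phosphatase to glycogen, was at 0.901, 0.182, 1.66 and 2.99 TPM, low throughout. The synthase Gys1 was at 51.4, 40.4, 52.8 and 77.5 TPM, 1.40-fold higher.

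The other HIF targets were listed from knowledge of the pathway, but with earlier results of these data known, so their counts only describe. Of 28 genes, 11 were past 1.5-fold higher and none lower, beside 2.41% and 1.18% of all genes. Above 0 were 27 of 28, beside 51.9% of all genes, and the median log2 difference was 0.55. The median was 0.27 in replicate 1 and 0.79 in replicate 2, and 25 of 28 genes were higher in replicate 2, beside 60.3% of all genes. None passed the thresholds with all libraries. Ndufa4l2, which replaces a subunit of the respiratory chain in hypoxia, had the largest log2 difference of all genes tested. It was at 9.71 and 5.03 TPM in normoxia and at 41.5 and 217 TPM on day 2, a log2 difference of 3.67 ± 0.68 (95% confidence interval 2.11 to 5.23, adjusted p = 0.363, limma). The day 2 libraries were both far above normoxia and also far apart from each other. Bhlhe40, a repressor that binds CACGTG, was at 12.4, 12.6, 33.1 and 97.7 TPM, 4.42-fold higher. Bnip3, which marks mitochondria for removal, was at 12, 12.7, 29.0 and 74.9 TPM, 3.69-fold higher (adjusted p = 0.522, limma). For both genes the normoxic libraries were alike and day 2 replicate 1 lay between them and replicate 2. Ddit4, an inhibitor of mTORC1 signalling, was at 274, 254, 449 and 962 TPM, 2.49-fold higher. Bhlhe41, the relative of Bhlhe40, was at 0.260, 0.828, 0.921 and 3.25 TPM. The remaining genes past 1.5-fold were Stc2, Ankrd37, Ndrg1, Fam162a, Car12 and Zfp395, with folds from 1.56 to 2.23. Several classical targets had overlapping groups. The demethylase Kdm3a was at 101, 87.2, 110.2 and 86.7 TPM, the lipid droplet gene Hilpda at 30.8, 33.6, 33.3 and 32.6 TPM, and the mitochondrial kinase Ak4 at 22, 19.5, 25.9 and 18.4 TPM. Car9, a carbonic anhydrase used as a hypoxia marker in tumours, was the one member below 0, at 1.31, 1.13, 0.815 and 1.09 TPM. Of the JmjC demethylases, which need oxygen to act, 0 of 20 were past 1.5-fold, beside 2.41% of all genes higher and 1.18% lower. Their median log2 difference was 0.10.

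**Figure D3:**
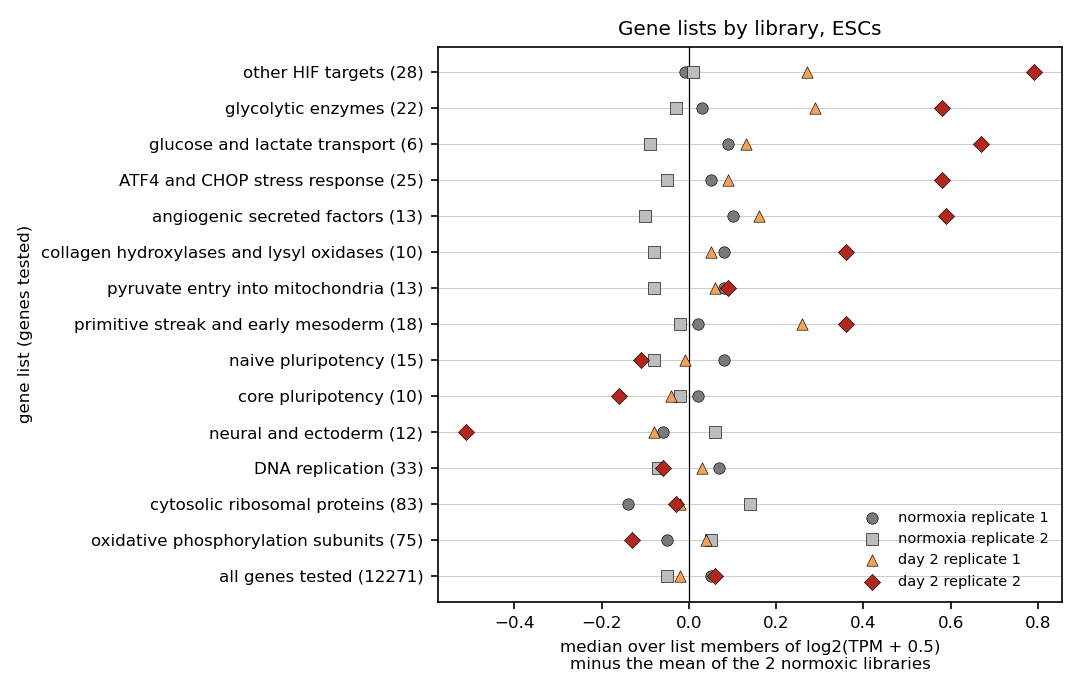
For each gene list (y axis, number of genes tested in brackets) the x axis gives the median over its genes of log2(TPM + 0.5) minus the mean of the 2 normoxic libraries, for each of the 4 libraries. Day 2 replicate 1 reaches 0.27 and replicate 2 reaches 0.79 for the other HIF targets, whereas in the day 2 libraries DNA replication, naive and core pluripotency and all genes together stay between -0.16 and 0.06.

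Collagen hydroxylation also uses oxygen, and 3 of 10 collagen hydroxylases and lysyl oxidases were past 1.5-fold higher, beside 2.41% of all genes. The prolyl hydroxylase subunit P4ha1 was at 4.10, 3.46, 6.97 and 15.1 TPM, 2.53-fold higher (adjusted p = 0.621, limma). The lysyl oxidase Loxl2, at 0.482, 0.318, 0.791 and 3.38 TPM, and the lysyl hydroxylase Plod2, at 8.77, 7.83, 9.76 and 21.2 TPM, were mainly high in replicate 2. Of 13 secreted factors tied to blood vessels, 3 were past 1.5-fold higher and 1 lower, beside 2.41% and 1.18% of all genes. Vegfa, the main angiogenic growth factor, was at 20, 18, 23.6 and 55.8 TPM, 1.89-fold higher (adjusted p = 0.970, limma). The peptide adrenomedullin, Adm, was at 0.293, 0.831, 1.89 and 8.78 TPM and the annexin Anxa2 at 9.15, 6.65, 16.1 and 30.1 TPM, 2.71-fold higher. Edn1, the precursor of the vasoconstrictor endothelin, went the other way, at 3.89, 3.31, 2.10 and 1.57 TPM, a log2 difference of -0.82 ± 0.20 (adjusted p = 0.602, limma). Its groups did not overlap.

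Low oxygen can also engage the ATF4 pathway, which answers amino acid shortage and stress of the endoplasmic reticulum. Of 25 listed genes, 20 were higher on day 2 and 5 were past 1.5-fold, beside 51.9% and 2.41% of all genes, with a median log2 difference of 0.32. This median came mostly from replicate 2 (0.58, against 0.09 in replicate 1), and 22 of the 25 genes were higher in replicate 2, beside 60.3% of all genes. The secreted Stc2, also on the HIF list, was at 17.3, 20.9, 30.8 and 60.2 TPM, 2.23-fold higher. Ddit3, which encodes CHOP, was at 12.1, 9.89, 13.1 and 36.3 TPM, high mainly in replicate 2. Chac1, a glutathione-degrading enzyme, was at 101, 107, 156 and 211 TPM, 1.74-fold higher with both day 2 libraries above normoxia. Nupr1 was at 26.6, 25.1, 30.4 and 69.3 TPM and Herpud1 at 28.7, 25.5, 36.2 and 50.3 TPM. The chaperone Hspa5 was at 1288, 1215, 1145 and 1175 TPM. Fgf21, a hormone gene induced by ATF4 in liver that is not on this list (chromosome 7, 45613886 to 45615490, minus strand, GRCm38), had the smallest p of all genes. It was at 2.37 and 1.68 TPM in normoxia and at 7.00 and 8.20 TPM on day 2, 3.23-fold higher (1.69 ± 0.21, 95% confidence interval 1.21 to 2.17, adjusted p = 0.215, limma). The day 2 replicates were alike for this gene, at 3-fold and 3.48-fold of normoxia.

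The study asked whether hypoxia shifts ESC identity, so pluripotency genes were followed next. No gene of the core network was past 1.5-fold, beside 2.41% of all genes higher and 1.18% lower. None had an unadjusted p under 0.05 in limma, beside 5.05% of all genes. At these shares 0 of 10 genes says little, and the log2 differences ran from -0.17 to 0.29. Pou5f1 (OCT4) was at 1983, 1975, 2009 and 1632 TPM and Sox2 at 2809, 3437, 2771 and 3232 TPM. Nanog was at 866, 755, 967 and 792 TPM, a log2 difference of 0.11 ± 0.15. All 3 had overlapping groups. Of 15 genes of the naive state, none was past 1.5-fold, beside 2.41% of all genes higher and 1.18% lower. Dppa3, a maternal factor and naive marker, was at 48.6, 43.2, 61.6 and 69.7 TPM, 1.42-fold higher (0.51 ± 0.14, adjusted p = 0.683), and Tbx3, a factor that sustains self-renewal, was at 134, 115, 97.7 and 86.2 TPM, 1.35-fold lower (adjusted p = 0.950). The groups did not overlap for these 2 genes. Genes of the formative state, which follows naive pluripotency, went in both directions. Of 12, 1 was past 1.5-fold higher and 2 lower, beside 2.41% and 1.18% of all genes. Foxd3 was at 543 and 689.9 TPM in normoxia and at 471 and 263 TPM on day 2, 1.74-fold lower, and Sox3 at 43.4, 62.2, 41.8 and 22.3 TPM, 1.69-fold lower. Both were lowest in replicate 2. Otx2 was at 16.1, 25.9, 21.3 and 35.7 TPM, with overlapping groups.

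WNT signalling drives formation of the primitive streak, where mesoderm and endoderm arise. Lef1, the WNT effector that binds DNA (chromosome 3, 131110471 to 131224356, plus strand, GRCm38), was at 3.14 and 3.29 TPM in normoxia and at 5.21 and 10.8 TPM on day 2, 2.17-fold higher (1.11 ± 0.30, 95% confidence interval 0.43 to 1.80, adjusted p = 0.683). Both day 2 libraries were above normoxia. The other WNT effectors and feedback genes gave no further gene past 1.5-fold higher among 14, beside 2.41% of all genes. The effector Ctnnb1 was at 285, 263, 289 and 253 TPM and the feedback gene Axin2 at 10.3, 7.60, 8.74 and 8.63 TPM, with overlapping groups, and the extracellular inhibitor Apcdd1 was at 3.17, 2.35, 2.03 and 1.32 TPM, 1.51-fold lower. Notum, a secreted enzyme that inactivates WNT ligands, was at 77.5, 77.1, 66.0 and 47.4 TPM. Of the WNT ligands, 7 of the 12 in the table passed the filter. Wnt3, the ligand of the early streak, was at 0.304, 0.307, 0.354 and 0.521 TPM, Wnt4 at 0.370, 0.525, 0.349 and 0.678 TPM and Wnt7b at 2.78, 1.54, 2.55 and 1.63 TPM, with log2 differences of 0.21, 0.08 and -0.02. Wnt3a and Wnt7a were under the filter, at most 0.311 and 0.0898 TPM. Wnt5a was the one ligand past 1.5-fold, at 2.01, 2.94, 1.31 and 1.34 TPM, 1.61-fold lower.

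Among 18 genes of the primitive streak and early mesoderm, 4 were past 1.5-fold higher and 1 lower, beside 2.41% and 1.18% of all genes, with a median log2 difference of 0.19, 0.26 in replicate 1 and 0.36 in replicate 2. T (brachyury), the defining streak factor, was at 4.16, 3.45, 4.17 and 5.80 TPM, a log2 difference of 0.34 ± 0.21 (95% confidence interval -0.14 to 0.82, adjusted p = 0.986). Day 2 replicate 1 was level with normoxia replicate 1. Eomes was at 7.96, 9.69, 10.6 and 12.1 TPM, 1.27-fold higher, and Mixl1 at 1.11, 2.36, 2.56 and 2.96 TPM, 1.51-fold higher, each with both day 2 libraries above normoxia. Tbx6, a factor of paraxial mesoderm, was at 1.24, 0.440, 1.60 and 4.22 TPM, 2.46-fold higher (adjusted p = 0.775, limma). Hand1, of lateral mesoderm and trophoblast, was at 2.16, 2.07, 3.57 and 5.64 TPM, 1.91-fold higher, and Nkx1-2 at 0.333, 0.519, 1.42 and 1.02 TPM, 1.85-fold higher. Nkx1-2 was higher in replicate 1 than in replicate 2, unlike the other 2. Evx1, a target of WNT in the posterior streak, was lower, at 12.4, 16.7, 7.82 and 4.56 TPM, a log2 difference of -1.20 ± 0.29 (adjusted p = 0.568, limma). Fgf8 was at 0.829, 1.80, 1.64 and 1.77 TPM, with overlapping groups. The direction thus differed between streak genes, with Evx1 lower where Tbx6 and Hand1 were higher.

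Posterior Hox genes were also lower. Of 6 tested, 3 were past 1.5-fold lower, against 1.18% of all genes. Hoxa13 was at 2.65, 2.02, 0.918 and 0.124 TPM, a log2 difference of -1.58 ± 0.41 (adjusted p = 0.621, limma). Hoxd13 was at 5.30, 7.16, 3.6 and 1.53 TPM and Hoxb9 at 4.75, 3.67, 2.54 and 2.22 TPM. Groups did not overlap in any of the 3. In the neural and ectoderm list, 9 of 12 genes were below 0, where 51.9% of all genes were above 0. The median log2 difference was -0.27, with -0.08 in replicate 1 and -0.51 in replicate 2. Sox21, a neural factor that counteracts Sox2 partners, was at 26.9, 39.8, 17.7 and 9.06 TPM, 2.51-fold lower (adjusted p = 0.711, limma). Sox1, of early neuroectoderm, was at 5.90, 5.02, 5.66 and 1.64 TPM, low in replicate 2 alone. In endoderm, the simple-epithelium keratin Krt19 was at 14.1, 8.05, 14.9 and 39.0 TPM, 2.21-fold higher (adjusted p = 0.958, limma), and Krt7 at 0.822, 0.536, 0.890 and 2.33 TPM, 1.69-fold higher. For both, replicate 1 was only slightly above normoxia replicate 1. Sox17, of definitive and primitive endoderm, was at 1.09, 0.768, 0.572 and 0.301 TPM, 1.53-fold lower, and Foxa2 at 2.01, 1.54, 2.10 and 0.756 TPM. Of the 11 trophoblast markers tested, 4 were past 1.5-fold higher, beside 2.41% of all genes. They were Hand1, Krt7, Plet1 (5.12, 3.64, 5.76 and 10.3 TPM) and Ascl2 (20.2, 16.8, 25.8 and 37.5 TPM), while Gata3, Gcm1 and Tfap2a had log2 differences of -0.15, -0.36 and -0.57.

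**Figure D4:**
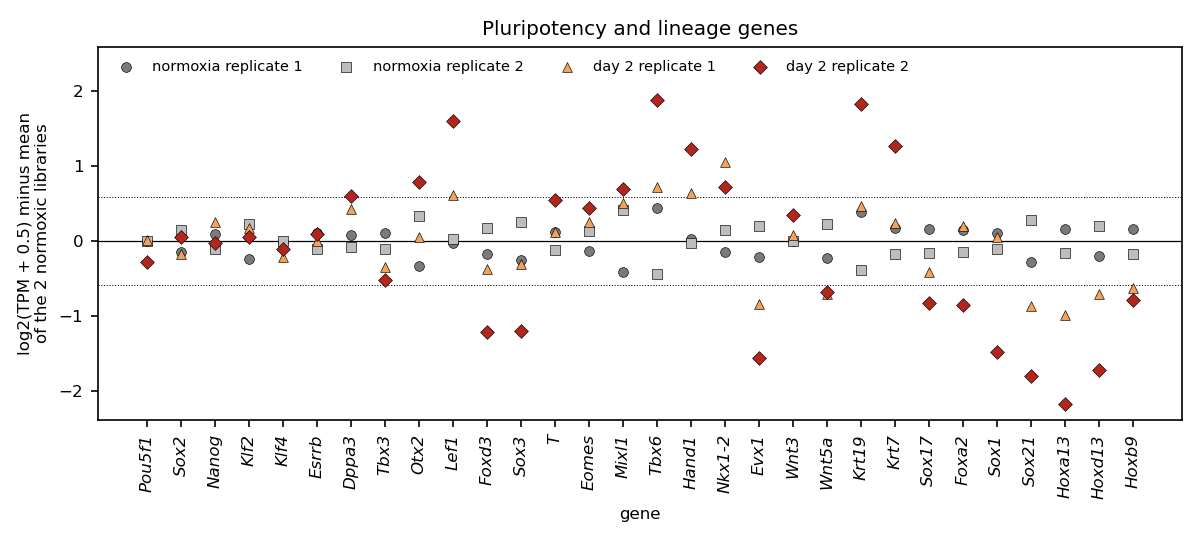
The y axis gives log2(TPM + 0.5) minus the mean of the 2 normoxic libraries for 30 pluripotency and lineage genes (x axis), with 1 symbol per library and dotted lines at 1.5-fold. Pou5f1, Sox2, Nanog and Klf4 stay near 0. Lef1, Tbx6, Hand1 and Nkx1-2 lie above the upper dotted line in both day 2 libraries. Evx1, Wnt5a, Sox21, Hoxa13, Hoxd13 and Hoxb9 lie below the lower one in both.

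Lists for general cell functions differed little. The 33 DNA replication genes had log2 differences from -0.13 to 0.14. None of them had an unadjusted p under 0.05 in limma, beside 5.05% of all genes. Of 75 nuclear genes for oxidative phosphorylation, 0 were past 1.5-fold, beside 2.41% of all genes higher and 1.18% lower. Above 0 were 20 of them, beside 51.9% of all genes. The median log2 difference was -0.07, with 0.04 in replicate 1 and -0.13 in replicate 2. The largest difference there was that of Ndufv3, at 54.0, 52.8, 60.5 and 83.5 TPM. The medians of the 83 cytosolic and 77 mitochondrial ribosomal protein genes were both -0.04. NRF2 antioxidant targets had a median of -0.03 over 17 genes, and Hmox1, a target of both NRF2 and HIF in other cells, was at 351, 279.8, 308 and 304 TPM.

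Of the genes with the smallest p past 1.5-fold and with groups apart, 12 in each direction were followed outside any list. Among the higher ones, besides Fgf21, Tpi1, Slc16a3, Pfkl and Pgam2, was Upp1, which releases ribose phosphate from uridine. It was at 121 and 134 TPM in normoxia and at 263 and 342 TPM on day 2, 2.35-fold higher (1.23 ± 0.18, adjusted p = 0.215). Gpx4, which removes lipid peroxides, was at 226, 242, 365 and 427 TPM, 1.69-fold higher. Myl7, an atrial myosin light chain, was at 12.1, 12.7, 21.7 and 23.4 TPM, Nccrp1 at 12.3, 11, 21.3 and 29.2 TPM and the meiotic kinase Aurkc at 2.28, 1.90, 5.50 and 5.51 TPM. S100a14 was at 0.640, 0.453, 3.50 and 2.15 TPM, 3.12-fold higher, and the testis chaperone gene Dnajc5g at 0.457, 0.359, 1.5 and 1.67 TPM. Both day 2 libraries were above normoxia in each of these genes, as the rule required. Among the lower genes, Nkx2-4, a homeobox gene, was at 5.95, 4.64, 1.92 and 1.54 TPM, 2.59-fold lower (adjusted p = 0.215, limma). Crct1 was at 5.99, 5.6, 1.38 and 1.96 TPM, 2.93-fold lower, and the neuroendocrine factor Insm1 at 17.0, 21.7, 10.8 and 4.99 TPM, 2.50-fold lower. The neural factor Pou3f2 was at 1.02, 1.04, 0.366 and 0.208 TPM and the flagellin receptor Tlr5 at 1.46, 1.22, 0.443 and 0.152 TPM. Also lower were Pop1, a protein subunit of RNase P, at 49.6, 49.3, 34.3 and 28.4 TPM and 1.57-fold lower, and Ssbp4 at 90, 98.9, 65.3 and 56.6 TPM and 1.55-fold lower. The others were Cyp1b1, Ism2, Pcdhb17, Prr23a2 and Trim36, with folds from 1.85 to 2.22 lower.

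Genes that differed most between the day 2 replicates were named for that difference, which is given without a test. The 8 genes with the largest excess in replicate 2 included the HIF targets Ndufa4l2 and Adm and the glycoprotein hormone Stc1, at 0.202, 0.107, 0.439 and 3.12 TPM. The others were not above normoxia in replicate 1, such as Mpig6b at 2.72, 1.74, 1.23 and 9.80 TPM, Hapln4 at 4.06, 5.09, 3.23 and 15.9 TPM and Eid3 at 7.29, 6.37, 1.72 and 16.6 TPM. In the other direction, Ube2dnl1 was at 6.48, 15.2, 9.67 and 0.416 TPM, Spink1 at 10.9, 12.8, 8.12 and 1.98 TPM, Ly6a at 20.1, 11.2, 30.8 and 5.39 TPM and Tlx3 at 3.46, 3.01, 2.16 and 0.136 TPM. Lars2 was at 33.6, 129.6, 92.7 and 26.0 TPM, so that its normoxic replicates differed about as much as the day 2 ones.

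The same comparison was made in trophoblast stem cells (TSCs) and extra-embryonic endoderm (XEN) cells, which have their own controls, and values are set side by side without a test of the difference. Of the 263 genes higher in ESCs, 200 were tested in TSCs and 91 of these (45.5%) were past 1.5-fold higher there, beside 12.6% of all genes tested in TSCs. In XEN cells 142 were tested and 38 (26.8%) were past 1.5-fold higher, beside 4.62%. Past 1.5-fold lower were 19 of them in TSCs and 11 in XEN cells, and the median log2 difference was 0.49 and 0.16. Of the 123 lower genes, 12 of 83 (14.5%) were past 1.5-fold lower in TSCs, beside 6.45%, and 7 of 52 (13.5%) in XEN cells, beside 4.08%. More of them were past 1.5-fold higher, 19 in TSCs and 11 in XEN cells, and their median log2 difference was 0.09 and 0.05, so that no shared direction was seen for the lower genes. Of the 132 higher genes tested in all 3 cell types, 21 (15.9%) were past 1.5-fold higher in each of them, where 0.863% of the 10081 genes tested in all 3 were past 1.5-fold higher in both TSCs and XEN cells. They held the glycolytic genes Aldoc, Pfkl, Tpi1, Ldha, Slc2a1 and Slc16a3, the hydroxylases Egln1 and Egln3, the HIF targets Bnip3, Ankrd37, Fam162a and Car12, and Krt19. Of the lower genes 0 of 46 did so, beside 0.188% of all genes lower in both, a share at which a count of 0 says nothing about them. For Slc16a3 the log2 difference was 1.62 in the ESC table, 1.41 in TSCs and 2.45 in XEN cells, and for Tpi1 it was 1.53, 1.16 and 0.77. Pdk1 was in the same order at 0.13, 2.47 and 0.71, and Slc2a3 at 0.57, 3.53 and -0.27. Bhlhe40 was at 2.14, -0.75 and 0.96, so that its direction differed in TSCs.

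ESCs after 7 days of hypoxia were compared with the same normoxic libraries, so both differences share their controls and are only listed together. Against normoxia, day 7 had 567 genes (4.62%) past 1.5-fold higher and 151 (1.23%) lower. Glycolytic enzymes had a median log2 difference of 0.46 on day 2 and 0.55 on day 7, and the other HIF targets 0.55 and 0.43. Streak genes had a median of 0.19 on day 2 and 0.56 on day 7. T was at 4.17 and 5.80 TPM on day 2 and at 19.0 and 15.8 TPM on day 7, while Lef1 was at 5.21 and 10.8 TPM and then at 5.25 and 6.27 TPM. Fgf21 was at 7.00 and 8.20 TPM on day 2 and at 3.14 and 3.62 TPM on day 7. Krt19 was at 14.9 and 39.0 TPM and then at 82.1 and 45.7 TPM. For Fgf21 both day 2 levels were above those of day 7, for T and Krt19 both day 7 levels were the higher, and for Lef1 the 2 times overlapped.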

How the data were processed

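Total RNA of 18 mouse libraries was sequenced in the series, of which the 6 ESC libraries (2 per group) were used for the fit. According to the submitters' processing notes and methods, reads were trimmed with cutadapt 2.4, aligned with STAR 2.7.5a to mm10, quantified with StringTie 2.0.6 and featureCounts against GENCODE, and low genes were removed with edgeR 3.26.8. The authors deposited TPM of protein-coding genes, 1 column per library. The tables hold no counts. Whether counting used strand is not given in the sources used here, so overlapping antisense genes cannot be told apart, and near-identical family members may share reads.

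Multiplying the deposited TPM by gene span gave whole reads in all 6 libraries for 13395 of 13578 genes, within 0.05 of a whole number, and these reads served for depth and for 1 alternative test.

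Genes above 0.4 TPM in at least 2 of 6 libraries were kept, with no column left unmapped. The contrast of day 2 with normoxia was fitted on log2(TPM + 0.5) with limma 3.58.1 (R 4.3.3), with a mean-variance trend over all 6 libraries, two-sided, and Benjamini-Hochberg adjustment over 12271 genes. A gene was called where the fold change exceeded 1.5 and the adjusted p did not exceed 0.1. The script was tested on simulated data. TSC and XEN tables were normalized and fitted separately. Promoters and gene positions came from RefSeq GRCm38.p6 and the GENCODE annotation of GRCm38.

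Named were the 12 genes per direction with the smallest p past 1.5-fold and with groups apart, up to 4 members per direction of each of 38 gene lists, all tested members of 4 lists on oxygen sensing and glucose use, the genes the study names for hypoxic ESCs, and the 8 genes per direction that differed most between the day 2 replicates. Genes with Gm or Rik names were left out of the first and last set. Further list members, such as Bhlhe41, Kdm3a, Hilpda, Ak4, Sox2, Axin2 and Herpud1, were named after their values were seen. Members and lists were chosen with earlier results of these data known. Alternatives changed the pseudocount, filter, scaling, trend, weights, replicate block and libraries.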

Additional observations from a re-analysis of the deposited data

How the results depend on the processing

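No gene passed the thresholds under any alternative except when a day 2 library was left out. Leaving out 1 library at a time gave 0 to 493 genes, with 493 without day 2 replicate 1 and 2 without day 2 replicate 2. Genes past 1.5-fold numbered 441, and 441 to 1346 when a library was left out (1346 without day 2 replicate 1). They numbered 720 with a pseudocount of 0.1, 305 with a pseudocount of 1 and 851 with voom on recovered reads. The higher genes were 67.1% of those past 1.5-fold, 41.2% without day 2 replicate 2 and 55.6% without normoxia replicate 2. At an unadjusted p under 0.05 there were 353 to 2113 genes across the libraries left out.

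The median log2 difference stayed above 0 in every setting, at 0.29 to 0.58 for glycolytic enzymes and 0.27 to 0.79 for other HIF targets when a library was left out, both ends set by the day 2 libraries.

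Same-numbered libraries did not deviate together (r = 0.01, -0.09 and -0.22). This cannot show whether they were grown or handled together, and the main fit did not treat the numbers as pairs. With the number as a replicate block, 0 genes passed, 459 had an unadjusted p under 0.05 and 441 were past 1.5-fold. Of 318 named genes, 108 changed sign in at least 1 fit that left out a library (87 with a day 2 library left out), such as Eid3 and Ly6a. Of these, 0 were among the 101 with an unadjusted p under 0.05 in limma. Those 101 were picked by p from the same libraries, which makes a change of sign unlikely, so the 0 is no separate check. With 2 libraries per group that stand apart on day 2, a p that misses the threshold does not show that a gene did not differ.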

Other observations

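Rhox genes, a homeobox cluster on the X chromosome, had a median log2 difference of 0.08 on day 2 over 7 genes. Of these, 1 was past 1.5-fold higher, beside 2.41% of all genes. Rhox1 was at 1.95 and 1.43 TPM in normoxia and at 2.54 and 3.16 TPM on day 2, 1.53-fold higher. Rhox5 was at 90.6, 79.9, 87.5 and 88.3 TPM, with overlapping groups. Members of this cluster resemble each other and may share reads.

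Of 30 germline genes, 3 were past 1.5-fold higher, beside 2.41% of all genes, and the median was 0.06. Sycp3, of the meiotic chromosome axis, was at 4.96, 3.68, 5.75 and 10.7 TPM, and Magea4 at 4.68, 2.84, 7.12 and 5.31 TPM.

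Cholesterol synthesis genes had a median of -0.19 in day 2 replicate 1 and of 0.23 in replicate 2. Past 1.5-fold were 0 of 24, beside 2.41% of all genes higher and 1.18% lower. Of 17 genes of NODAL and BMP signalling, 1 was past 1.5-fold, lower, beside 1.18% of all genes. It was Id4, at 10.3, 12.7, 7.28 and 6.81 TPM. Of 16 genes of FGF and ERK feedback, 0 were past 1.5-fold, beside 2.41% of all genes higher and 1.18% lower. Spred1, an inhibitor of this pathway, was at 24.2, 22.4, 16.5 and 15.1 TPM. Immediate early genes had 4 of 15 past 1.5-fold higher, cyclins and p53 targets 1 of 21, and 2-cell-like markers 1 of 16, beside 2.41% of all genes. No explanation of these values was tested.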
